A study of Mus musculus with 8 samples.

Results

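Open chromatin was described at 32 genes of glucose uptake, glycolysis, amino acid and lactate transport and mTOR signalling in splenic natural killer (NK) cells, the cytotoxic lymphocytes of innate immunity. The 32 genes were taken by name from 21887 protein-coding genes, and a peak was assigned to a gene when that gene had the nearest end, at most 50 kb from the peak's midpoint. All 32 had linked peaks. These peaks fell into 137 of the 50044 regions that were called in at least 2 of the 8 libraries. They comprised 7 transporter genes, 15 genes of glycolytic enzymes, 8 genes of the mTOR pathway and the transcription factor genes Myc and Hif1a.

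ATAC-seq, in which a transposase cuts accessible DNA, was run on NK cells sorted as CD49b+ CD3e- from spleens of unchallenged mice, with 200000 cells and 1 library per mouse. The WT group was 4 mice with wild-type HSF1 (replicates 4, 5, 6 and 7). The MUT group was 4 mice whose HSF1, the main transcription factor of the heat shock response, has alanine in place of serines 303 and 307 (replicates 26, 27, 28 and 29). The labels name no strain, age or sex, the mutation is not described as limited to NK cells, and any other difference between the mice or their handling cannot be told apart from the genotype.

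Glycolysis turns glucose into pyruvate, and lactate dehydrogenase then makes lactate, which leaves the cell through monocarboxylate transporters. mTOR is a kinase that works in a pair of complexes, mTORC1 with Raptor and mTORC2 with Rictor. mTORC1 is switched on by the small GTPase Rheb, held back by the TSC1 and TSC2 proteins, and fed by amino acids that enter through transporters such as the SLC7A5 and SLC3A2 pair. Resting NK cells are known to run at a low metabolic rate and to raise glucose uptake and glycolysis after cytokine stimulation, with mTORC1 and MYC as drivers.

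The lists held 42695 to 46102 peaks in WT and 44333 to 49627 in MUT, and read depth is unknown because the lists hold no counts. A peak missing from a list was not called, which does not show closed chromatin. All 8 NK marker genes examined, such as Ncr1 and Eomes, carried a called peak at a gene end in all 8 libraries, against 0 of 6 B cell and 0 of 5 neutrophil markers. Their summed length was 31988 to 34045 bp in WT and 30994 to 34921 bp in MUT for NK, and 1279 to 2345 and 1401 to 2877 bp for B cell markers, while 4 of the 5 neutrophil markers had no linked peak in any library. All 6 T cell markers, Cd3e included, also had one in every library, and their summed length was 9676 to 11265 bp in WT and 11064 to 14062 bp in MUT. A gene-end peak in all 8 libraries was found at 2 of 5 macrophage and monocyte and 1 of 5 basophil and mast cell markers. The same held for 2 of 6 erythroid and platelet markers. Summed lengths in WT and MUT were 1268 to 1976 and 1490 to 2115 bp for macrophage and monocyte markers. For basophil and mast cell markers they were 3613 to 4222 and 3667 to 4753 bp. For erythroid and platelet markers they were 2367 to 2924 and 2373 to 2907 bp. The part of other cells in the results below was not tested. Hsf1 itself was linked to 782 ± 68.6 bp in the WT and 832 ± 111 bp in the MUT mice (SD, n = 4 each), a log2 difference of 0.04 with a limma adjusted p of 0.894.

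RefSeq start windows (250 bases before to 50 after a start, GRCm38.p6) are shown for 5 genes, because a peak at the start differed in shape between libraries (Rptor, Pfkfb3), because the window holds the paired form of the heat shock element (Pfkl, Pfkm), or because alternative starts of a gene differed in being open (Hk1). All run 5′ to 3′ along the gene's strand. Capitals mark the searched motifs, which were GAANNTTC or TTCNNGAA (paired heat shock element), its 3-unit form (the pair plus another alternating unit after a gap of NN), ACGTG (the core of the hypoxia response element), CACGTG (the E-box bound by MYC and its relatives, which contains ACGTG) and TGATGNAA (the core of the ATF4 element), each on both strands. The Rptor window is chr11:119602655-119602954 on the plus strand, and the Pfkfb3 window is chr2:11553880-11554179 on the minus strand.
Rptor: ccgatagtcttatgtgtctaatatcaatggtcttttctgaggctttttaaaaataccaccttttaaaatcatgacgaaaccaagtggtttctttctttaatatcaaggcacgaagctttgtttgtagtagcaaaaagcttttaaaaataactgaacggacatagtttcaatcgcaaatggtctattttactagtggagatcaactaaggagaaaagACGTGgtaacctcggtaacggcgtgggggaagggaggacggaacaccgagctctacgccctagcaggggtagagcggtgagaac
Pfkfb3: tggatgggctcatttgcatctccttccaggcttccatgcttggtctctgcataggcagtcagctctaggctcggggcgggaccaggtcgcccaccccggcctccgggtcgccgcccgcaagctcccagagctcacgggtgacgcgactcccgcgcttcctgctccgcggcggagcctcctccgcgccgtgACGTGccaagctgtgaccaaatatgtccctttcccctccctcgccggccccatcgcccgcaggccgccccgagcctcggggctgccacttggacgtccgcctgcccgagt
The Pfkl window is chr10:78009758-78010057 on the minus strand, and the Pfkm window is chr15:98111810-98112109 on the plus strand, the last of the 4 listed Pfkm starts along the gene.
Pfkl: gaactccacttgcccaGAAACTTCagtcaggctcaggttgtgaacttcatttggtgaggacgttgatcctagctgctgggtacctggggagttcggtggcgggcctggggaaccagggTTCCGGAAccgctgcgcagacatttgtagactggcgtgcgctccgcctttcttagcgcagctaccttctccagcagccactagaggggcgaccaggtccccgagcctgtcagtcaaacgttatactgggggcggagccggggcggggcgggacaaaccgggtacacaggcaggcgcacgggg
Pfkm: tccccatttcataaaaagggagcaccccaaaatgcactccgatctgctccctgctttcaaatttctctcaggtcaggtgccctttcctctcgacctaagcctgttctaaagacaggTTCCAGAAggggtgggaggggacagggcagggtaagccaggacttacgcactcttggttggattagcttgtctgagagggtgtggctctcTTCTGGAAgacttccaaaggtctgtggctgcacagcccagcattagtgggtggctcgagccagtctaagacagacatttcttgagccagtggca
The Hk1 windows, both on the minus strand, are chr10:62379859-62380158 for the upstream start and chr10:62340372-62340671 for the downstream start.
Hk1 upstream: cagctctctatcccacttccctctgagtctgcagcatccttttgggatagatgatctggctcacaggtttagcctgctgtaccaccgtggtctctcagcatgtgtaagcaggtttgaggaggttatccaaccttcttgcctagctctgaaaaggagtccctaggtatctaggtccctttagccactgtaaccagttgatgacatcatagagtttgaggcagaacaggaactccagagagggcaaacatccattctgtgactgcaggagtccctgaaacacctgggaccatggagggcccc
Hk1 downstream: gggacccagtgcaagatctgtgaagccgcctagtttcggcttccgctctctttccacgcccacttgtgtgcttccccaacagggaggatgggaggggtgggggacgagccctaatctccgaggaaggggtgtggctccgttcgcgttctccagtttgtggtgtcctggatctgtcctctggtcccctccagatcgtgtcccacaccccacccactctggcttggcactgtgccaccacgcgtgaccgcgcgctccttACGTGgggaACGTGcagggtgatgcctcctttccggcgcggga

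Nearly all of these genes had an open start in every mouse. Of the 32 genes, 27 have start windows in the RefSeq table, and each of the 27 had at least 1 start under a called peak in 8 of 8 libraries. The same held for 8665 of 17492 protein-coding genes with an entry, or 49.5%. Slc2a3, Slc7a5, Slc1a5, Eif4ebp1 and Myc have none. Of the 38 windows of the 27 genes, 33 were covered in 8 of 8 libraries and 5 in none, while over all 21263 windows 47.2% were covered in 8 of 8 and 47.7% in none. The median GC content was 65.0% in the 33 covered windows and 52.7% in the 5 uncovered ones, next to 62.3% and 49.3% over all windows.

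At genes with more than 1 listed start, the peaks lay on some of the starts and not on others. Hk1 encodes hexokinase, which phosphorylates glucose on entry. Its downstream start was fully covered, 300 of 300 bases, in 8 of 8 libraries, and its upstream start at position 62379908 had 0 covered bases in all 8. Pkm, the pyruvate kinase gene, had its upstream start at 59656576 fully covered and its start at 59657227 uncovered. Aldoa, the aldolase gene, had 2 downstream starts fully covered and its most upstream start, 126800447, uncovered. Pfkm, which encodes the muscle-type subunit of phosphofructokinase, had 4 starts, of which the inner pair was covered and the first and last, at 98092589 and 98112060, were uncovered in all libraries. Eno1, Ldha and Pfkfb3 were covered at each of their listed starts. The Eno1 start at 150236708 was only grazed, by 36 to 57 bases in WT and 23 to 72 in MUT. Which starts were under peaks did not differ between the genotypes at any of the 38 windows, since each was covered in 8 libraries or in none.

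**Figure D1:**
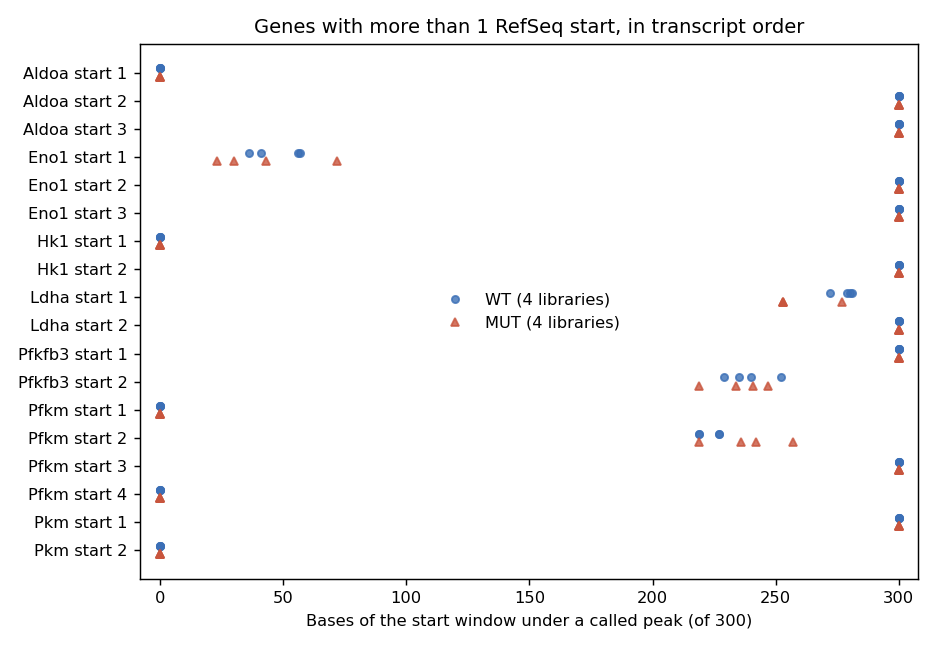
Bases of each 300-base RefSeq start window under a called peak (horizontal axis) for the 7 genes with more than 1 listed start, numbered along the direction of transcription; circles are the 4 WT and triangles the 4 MUT libraries. The 5 windows at 0 are Aldoa start 1, Hk1 start 1, Pfkm starts 1 and 4 and Pkm start 2, and all others were covered in all 8 libraries.

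The 3-unit heat shock element was found in 0 of the 38 windows and in 0.517% of all 21263. The paired form was in 2 windows, against 13.7% of all windows. The Pfkl window held 2 paired elements and lay under a peak in every library, with 264, 297, 300 and 300 covered bases in WT and 300 in each MUT library. The Pfkm window with 2 paired elements was the last start, which was uncovered in all 8. The ACGTG core was in 20 of the 38 windows, belonging to 17 genes, against 20.9% of all windows; some of these windows overlap each other, such as the downstream pair of Aldoa. The E-box was in 6 windows (Hif1a, Ldha, the inner Pfkfb3 start, the first Pfkm start, Rheb and Slc16a1), against 7.84% of all, and the ATF4 core in 0, against 3.60%. These are matches of letters, and no test was made of them. The shares over all windows include the 47.7% covered in no library, of median GC content 49.3%. Of the 38 windows here 33 were covered in 8 of 8, so the shares do not compare like windows.

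The 137 regions were 42 gene-end regions, which lie within 1 kb of either end of their gene, and 95 distal ones. Of the 137, 102 were called in 8 of 8 libraries, which is 74.5%, against 68.9% of all 50044. For gene-end regions the numbers were 33 of 42, next to 84.7% of all gene-end regions, and for distal regions 69 of 95, next to 63.2% of all distal regions. A gene-end region called in 8 of 8 libraries was present at 29 of the 32 genes, the exceptions being Hk1, Pfkm and Hif1a, and at 69.3% of the 14255 genes tested. At Hk1 and Hif1a the covered start lies inside the outermost ends of the gene, so its peak counts as distal. The same holds for the listed starts of Ldha and Slc3a2 and for the inner Pfkfb3 start. The gene-end region of Ldha (chr7:46855060-46855474) lies at its downstream end. That of Slc3a2 (chr19:8722861-8723614) lies away from the listed start at 8713897. A gene-end region is thus not always at a start. At Pfkm the peak on the covered starts is nearest to an end of the neighbouring gene Senp1 and was linked to Senp1 in 8 of 8 libraries, which leaves Pfkm with 1 weak region.

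**Figure D2:**
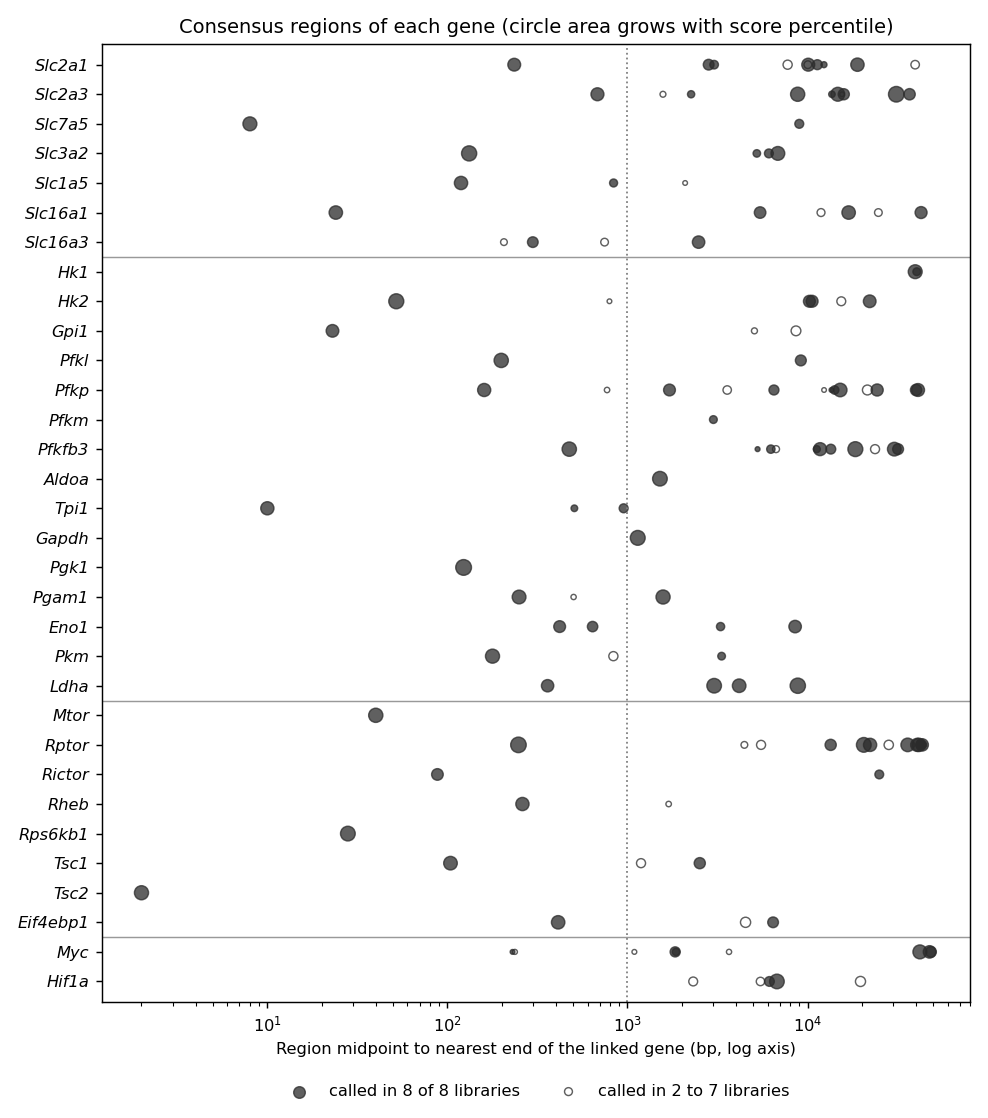
Distance from each region's midpoint to the nearest end of its linked gene in bp (log axis), for the 137 regions of the 32 genes; filled circles were called in 8 of 8 libraries and open circles in 2 to 7, the circle area grows with the mean score percentile, and the dotted line marks 1 kb. Most genes have a filled circle left of the line, and Slc2a1, Slc2a3, Pfkp, Pfkfb3, Rptor and Myc also have a row of regions to its right.

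Peak strength could be read only as the rank of the authors' score within each list, where 100 is the top of the list. The unit of the score is unknown, so strong and weak describe this rank alone. The median percentile of the gene-end regions was 65.7, next to 68.5 for all gene-end regions, and that of the distal regions was 36.1, next to 37.1. The single Pgk1 region, at the start of the phosphoglycerate kinase gene on chromosome X, stood at a mean percentile of 99.4, between 99.0 and 99.9 in the 8 libraries. The Rptor start region was at 97.1. A distal region in the gene body of Slc2a3, which encodes the glucose transporter GLUT3 (chr6:122758673-122759161), was at 97.7, and a region upstream of Ldha (chr7:46833246-46833651) was at 93.8. In 19 of the 32 genes the strongest region was at a gene end. The opposite was seen at Myc, whose 3 gene-end regions had mean percentiles of 1.31 to 2.27 while a region 42062 bp away (chr15:62031894-62032952) had 76.6. The Myc gene-end regions thus lay near the bottom of the lists in both genotypes.

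The genes differed widely in how much open chromatin was linked to them. The median over the 32 genes of the mean summed length was 1429 bp, against 1016 bp over the 14255 genes tested, and 25 of the 32 lay above that median. A long gene with distant neighbours can collect more peaks, so the length was also taken per kb of the stretch over which a peak would be linked to the gene. On that scale the median was 35.4 bp per kb, against 24.0 over all tested genes, and 18 of 32 lay above it. Densest were Tpi1 with 285 bp per kb, Gapdh with 201 and Ldha with 127, over stretches of 3.21, 5.42 and 25.4 kb. Pfkm with 5.09 and Tsc2 with 7.80 were the sparsest. The values for Pfkm and Tsc2 are those of the nearest-end links, which give their start peaks in part or whole to a neighbour.

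**Figure D3:**
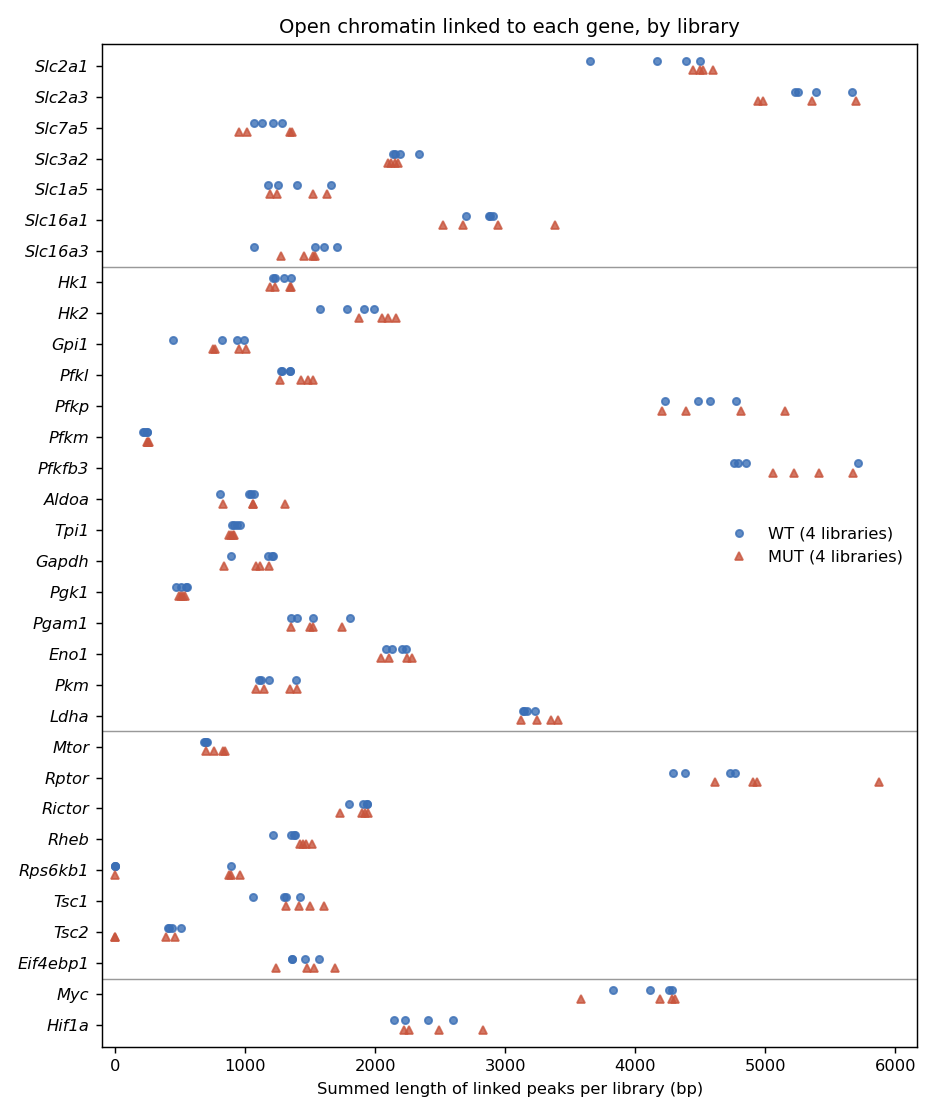
Summed length of linked peaks in bp (horizontal axis) for each of the 32 genes in each library; circles are the 4 WT and triangles the 4 MUT libraries, with thin lines between transporters, glycolytic enzymes, mTOR genes and transcription factors. The circles and triangles of each gene overlap at 31 of 32 genes, Rheb being the exception, and the values at 0 belong to Rps6kb1 and Tsc2.

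Between the genotypes, no gene of the 32 passed the test. Total linked length was compared with limma on log2(bp + 200) after scaling each library to the same total, with Benjamini-Hochberg adjustment over all 14255 genes, of which 96, or 0.673%, passed. Of the 32 genes 0 passed and 1, Rptor, had an unadjusted p under 0.05, against 11.2% of all genes. The median log2 difference, MUT minus WT, was -0.0021 over the 32 genes and -0.02 over all tested genes. With gene-end length alone 0 of 29 passed (background 0.263%) and 3 had an unadjusted p under 0.05 (background 6.78%), namely Rptor, Pfkl and Eno1. With distal length alone 0 of 27 passed (background 1.27%) and 2 had an unadjusted p under 0.05 (background 13.1%), Rptor and Slc2a3. The lowest adjusted p was 0.401 for total, 0.337 for gene-end and 0.169 for distal length, all 3 at Rptor.

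**Figure D4:**
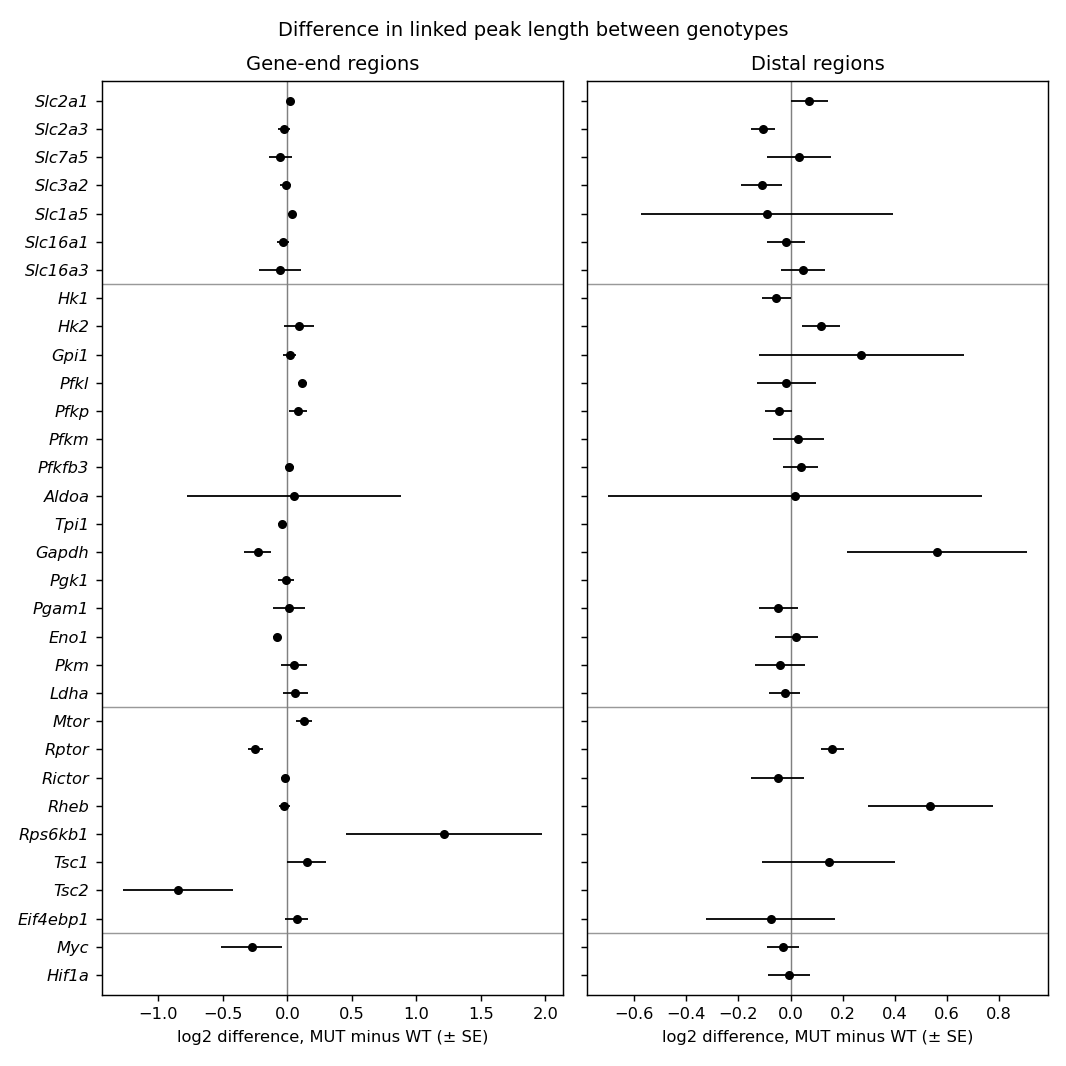
Log2 difference in scaled linked length, MUT minus WT, with its standard error (bars), for gene-end (left) and distal regions (right) of each gene; the axes of the panels differ, and genes not tested in a class have no point. No gene passed the adjusted threshold, and the wide bars at Rps6kb1, Tsc2 and Aldoa belong to genes whose start peak changed its linked gene or its class between libraries.

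Among the 7 nutrient transporters the log2 differences in total length ran from -0.08 to 0.07, with a median of -0.05 and a lowest adjusted p of 0.455. Slc2a3 had the most linked length, 5665, 5254, 5389 and 5231 bp in WT and 4948, 5697, 5362 and 4982 bp in MUT. The genotypes overlapped, with replicate 27 of MUT the highest of all 8. Distal length at Slc2a3 had a log2 difference of -0.11 (SE 0.045, adjusted p = 0.361). Slc2a1, the gene of the main glucose transporter GLUT1, had 4170, 4499, 4391 and 3652 bp in WT and 4501, 4522, 4599 and 4445 bp in MUT. Its WT replicate 7 was the lowest library, and replicate 5 of WT lay within the MUT range.

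Slc7a5 and Slc3a2 encode the light and heavy chains of the large neutral amino acid transporter. Slc7a5 had the least length among the transporters, 1072, 1283, 1217 and 1132 bp in WT and 1343, 1359, 1012 and 956 bp in MUT. Its MUT libraries were the 2 highest and the 2 lowest of the 8. At the gene end of Slc3a2 the peak was 749, 751, 747 and 747 bp in WT and 741, 733, 743 and 745 bp in MUT. All 4 MUT values were lower, which was seen in either direction at 4.18% of genes. The log2 difference was -0.01 (SE 0.040, adjusted p = 0.99997). Slc1a5, which carries glutamine and other neutral amino acids, and the lactate transporter genes Slc16a1 and Slc16a3 had 1384, 2861 and 1462.5 bp on average over the 8 libraries, with adjusted p of 0.976, 0.879 and 0.905 for the genotype.

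At the 15 genes of glycolytic enzymes the log2 differences in total length ran from -0.11 at Gapdh to 0.12 at Hk2, with a median of 0.01 and a lowest adjusted p of 0.541. Pfkfb3, whose product makes the strongest activator of phosphofructokinase, had the most length, 5713, 4760, 4853 and 4793 bp in WT and 5223, 5672, 5414 and 5058 bp in MUT. Replicate 4 of WT was above all MUT libraries and the other WT libraries were below them. Pfkm had the least, 219, 243, 249 and 224 bp in WT and 253, 252, 263 and 249 bp in MUT, all from 1 region of mean percentile 17.9 (chr15:98089453-98089727). The ranges touch at 249 bp. This region lies in the gene body of Senp1, with its midpoint 2999 bp from the nearer end of Pfkm. Hk2, the inducible hexokinase gene, had 1914, 1988, 1786 and 1576 bp in WT and 2159, 2054, 2099 and 1873 bp in MUT, overlapping through MUT replicate 29 (log2 difference 0.12, SE 0.064, adjusted p = 0.541).

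The other enzymes of the pathway had similar lengths in the genotypes. Downstream of hexokinase and beside the phosphofructokinases, Gpi1, Aldoa, Tpi1, Gapdh, Pgk1, Pgam1, Eno1, Pkm and Ldha had between 1 and 4 regions each and mean total lengths of 516 bp (Pgk1) to 3225 bp (Ldha). Their log2 differences lay between -0.11 and 0.10, and Hk1 had -0.03 (SE 0.050, adjusted p = 0.862). Aldoa was counted as gene-end in 6 libraries and as distal in WT replicate 6 and MUT replicate 29, although its single region was called in all 8.

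The phosphofructokinase genes Pfkl (liver type) and Pfkp (platelet type) catalyse the committed step of glycolysis and held 3 of the 7 regions with an unadjusted p under 0.05 for width. The gene-end region of Pfkl (chr10:78009017-78010199), which covers the window printed above, was 989, 981, 1035 and 1058 bp wide in WT and 1158, 1172, 1137 and 1015 bp in MUT. MUT replicates 26, 27 and 28 were above all WT libraries and replicate 29 was among them (log2 width difference 0.11, SE 0.044, adjusted p = 0.465). A Pfkp region downstream of the start (chr13:6647074-6647624) was 442, 474, 447 and 452 bp in WT and 542, 548, 549 and 544 bp in MUT. Here the genotypes were fully apart, at 454 ± 14.1 and 546 ± 3.30 bp (SD, n = 4 each), with a log2 difference of 0.24 (SE 0.050, adjusted p = 0.204). Widths without overlap between genotypes, wider in MUT, made up 3.76% of all 34461 regions tested for width and 4 of the 102 tested here. A second Pfkp region (chr13:6624446-6624971) was 345, 261, 351 and 240 bp in WT and 356, 526, 416 and 362 bp in MUT (log2 difference 0.45, SE 0.152, adjusted p = 0.416). The 4 MUT libraries were all wider there, the narrowest by 5 bp.

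Over the 102 regions of the 32 genes that were called in 8 of 8 libraries, 0 passed the width test, against 0.0783% of all 34461, and 7 had an unadjusted p under 0.05, against 9.69% of all, of which 5 were wider in MUT. The median log2 width difference was -0.01 here and -0.02 over all regions. The remaining 4 of the 7 were the Rptor start region, a second Rptor region (chr11:119877100-119877589, 0.22, SE 0.088, adjusted p = 0.483), a Hk2 region (chr6:82763931-82764503, 0.20, SE 0.075, adjusted p = 0.437) and a Pfkfb3 region (chr2:11547657-11547977, -0.21, SE 0.086, adjusted p = 0.478).

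The Pfkfb3 start was called as a different number of peaks in the genotypes. In 4 of 4 WT libraries the region chr2:11552959-11554233 held a strong peak of 703 to 738 bp over the start and a separate weak peak of 343 to 471 bp downstream of it, at percentiles 2.14 to 4.05. In 4 of 4 MUT libraries it held 1 peak of 1120 to 1266 bp that spanned both. The covered length was close, 1196, 1081, 1138 and 1163 bp in WT and 1143, 1266, 1123 and 1120 bp in MUT, and the ranges overlap. Fewer peaks in MUT without overlap of the genotypes was seen at 8 of the 34461 regions, or 0.0232%, and more peaks in MUT at 9, or 0.0261%. This region was picked after its values were seen, and whether the join reflects signal between the peaks cannot be read from the lists. When only the upper 50% of each list by score was used, the weak WT peaks dropped out while the joined MUT peaks stayed. Gene-end length at Pfkfb3 then differed by 0.60 (SE 0.034, limma adjusted p = 0.000118), so that this call follows from how the peaks were split.

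**Figure D5:**
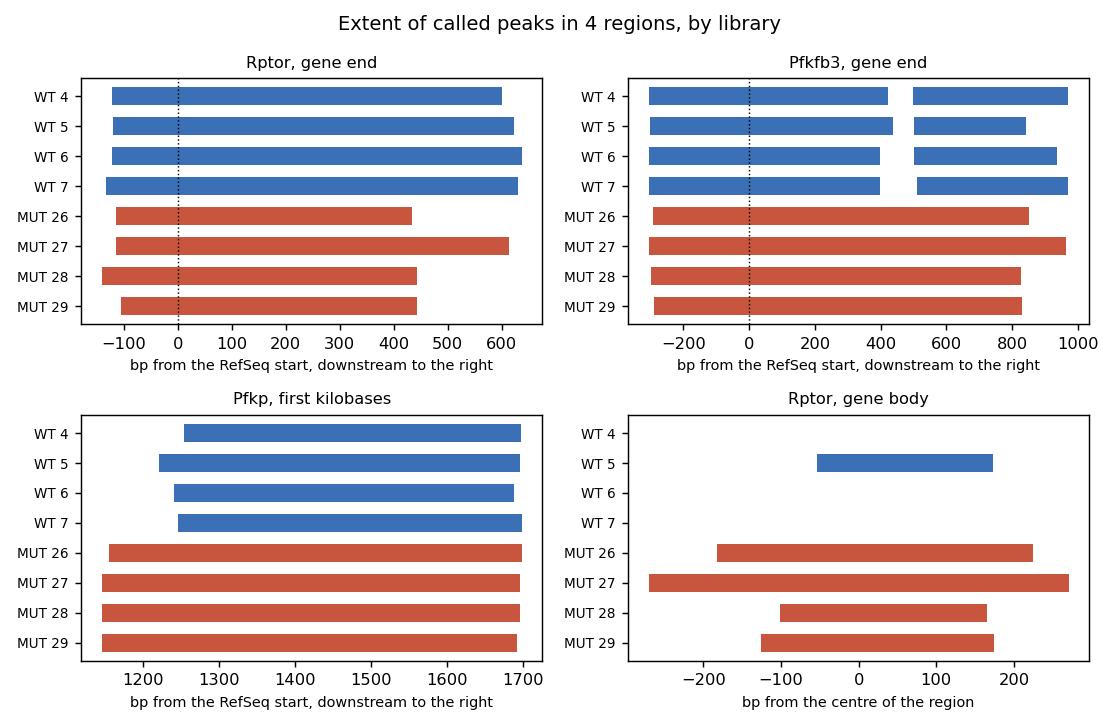
Extent of the called peaks in each library (bars) at 4 regions, in bp from the RefSeq start along the gene or, for the Rptor gene body, from the region's centre; WT libraries are blue, MUT libraries red, and an empty row has no called peak. WT has 2 bars and MUT 1 at Pfkfb3, the MUT bars at Pfkp begin nearer to the start, and 3 of the 4 MUT bars at the Rptor start end earlier than the others.

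Within the mTOR pathway, Rptor had the lowest p of the 32 genes for total, gene-end and distal length. Its difference was below 0 in gene-end length and above 0 in summed distal length. Widths of single distal regions went both ways, such as -0.14 at chr11:119623087-119623783 and 0.22 at chr11:119877100-119877589. Rptor encodes Raptor, the substrate-binding subunit of mTORC1, and had the most linked length of the group, 4387, 4732, 4769 and 4291 bp in WT and 4910, 5877, 4936 and 4613 bp in MUT. The ranges overlap through MUT replicate 29 (log2 difference 0.11, SE 0.046, adjusted p = 0.401). Its start region (chr11:119602765-119603541) was 722, 743, 759 and 763 bp in WT and 549, 728, 583 and 548 bp in MUT. Peaks ended 599 to 636 bp downstream of the start in WT and 433, 613, 442 and 442 bp in MUT. Replicate 27 of MUT was thus like the WT libraries and the other 3 were shorter on the downstream side. The width difference was -0.35 (SE 0.072, limma adjusted p = 0.204). When each library was left out in turn, it was -0.42 to -0.31, with a limma adjusted p of 0.0380 to 0.347. Only the fit without MUT replicate 27 passed the threshold. That fit drops the MUT library most like WT, which by itself enlarges the difference, so it is no support for one. Score percentiles of this peak were 96.1 to 98.1 in the 8 libraries.

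Distal length at Rptor was 3665, 3989, 4010 and 3528 bp in WT and 4361, 5149, 4353 and 4065 bp in MUT, with all MUT libraries above all WT libraries. Its log2 difference was 0.16 (SE 0.044, adjusted p = 0.169), and a distal length without overlap, in either direction, was found at 7.37% of the 9777 genes tested and at 2 of the 27 genes here. One source was a region in the gene body (chr11:119871080-119871620), with peaks of 408, 541, 268 and 300 bp in the 4 MUT libraries and a peak of 227 bp in WT replicate 5 alone. Fisher's exact test (two-sided) of 4 against 1 library gives p = 0.143. A weaker region of the gene body (chr11:119855426-119855802) had peaks in MUT replicates 27 and 28 and in no WT library. The former was the only one of the 137 regions with at least 3 more MUT than WT libraries, a difference found in 2.68% of all regions, and 0 had at least 3 more WT libraries, against 1.06%. No region of the 32 genes was called in all libraries of 1 genotype and none of the other, against 0.761% of all regions.

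Rheb, the activator of mTORC1, was the only one of the 32 genes whose total length did not overlap between genotypes, with 1214, 1354, 1385 and 1378 bp in WT and 1470, 1444, 1426 and 1514 bp in MUT. Total lengths without overlap were found at 5.75% of tested genes. The difference lay in a region upstream of the start (chr5:24843892-24844216) of mean percentile 4.50. Its length was 0, 203, 200 and 205 bp in WT and 323, 285, 283 and 325 bp in MUT. The peak at the Rheb start was 1151 to 1214 bp in WT and 1143 to 1189 bp in MUT. On the scaled log2 scale total length differed by 0.09 (SE 0.071, adjusted p = 0.710) and distal length by 0.54 (SE 0.241, adjusted p = 0.394), and with the upper 50% of each list the total difference was -0.040.

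Mtor itself had a single region, at its start, of 692, 709, 697 and 688 bp in WT and 696, 830, 759 and 844 bp in MUT. Replicate 26 of MUT lay within the WT range (log2 difference 0.10, SE 0.069, adjusted p = 0.636). Rictor, of mTORC2, averaged 1895 ± 64.8 bp in the WT and 1873 ± 98.3 bp in the MUT mice (SD, n = 4 each, adjusted p = 0.670). The inhibitor gene Tsc1 had 1275 ± 152 and 1459 ± 127 bp (adjusted p = 0.582), and Eif4ebp1, which encodes the translation repressor that mTORC1 switches off, had 1437 ± 97.6 and 1482 ± 188 bp (adjusted p = 0.999).

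At the start of Rps6kb1, the gene of the mTORC1 substrate S6 kinase, and of the inhibitor gene Tsc2, the length moved between neighbours. Rps6kb1 had 0, 0, 0 and 891 bp in WT and 876, 892, 963 and 0 bp in MUT. Its start region (chr11:86544373-86545342) was nevertheless called in all 8 libraries, and the peak was nearest to an end of Tubd1 in 4 of them. Tsc2 had 436, 506, 406 and 415 bp in WT and 0, 464, 0 and 393 bp in MUT, with the peak linked to Nthl1 in MUT replicates 26 and 28 and the region called in 8 of 8. The log2 differences of 1.19 (SE 0.739, adjusted p = 0.613) and -0.87 (SE 0.408, adjusted p = 0.480) therefore describe links and not the presence of peaks. With each peak given the gene of its merged region they were 0.09 (SE 0.080, adjusted p = 0.713) and -0.03 (SE 0.070, adjusted p = 0.902). Tsc2 had the least mean length of the mTOR group over the 8 libraries, 327.5 bp.

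Of the transcription factor genes, Myc had the more length, 4286, 4113, 4261 and 3827 bp in WT and 4188, 4306, 4286 and 3580 bp in MUT. Hif1a, whose product turns on glycolytic genes in low oxygen, had 2146, 2410, 2227 and 2597 bp in WT and 2494, 2829, 2260 and 2219 bp in MUT. The genotypes overlapped at each gene, with log2 differences of -0.05 (SE 0.043, adjusted p = 0.716) and 0.02 (SE 0.077, adjusted p = 0.946). The Hif1a start region (chr12:73907412-73908752) was at percentiles 83.4 to 86.6 in all 8 libraries.

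A wider list of 89 genes of the same pathways gave 79 tested genes, of which 30 had a log2 difference above 0 (6005 of 14255 over all genes) and 1 passed the test, against 0.673% of all genes. The list was 39 tested mTOR genes (8 above 0, median -0.04, 0 passing), 16 glycolysis and pyruvate genes (7 above 0, median -0.0050, 0 passing), 11 transporters (9 above 0, median 0.07, 1 passing) and 13 MYC and HIF genes (6 above 0, median -0.02, 0 passing). The gene that passed was Slc43a2, a transporter of leucine and other large neutral amino acids. It had 2410, 2593, 2506 and 2367 bp in WT and 2926, 3208, 3319 and 2804 bp in MUT, with no overlap. The log2 difference was 0.25 (SE 0.041, limma adjusted p = 0.0390). Its gene-end region (chr11:75530417-75530716) was called in all 8 libraries at 235 to 295 bp, and the difference lay in gene body regions of low score. One of them (chr11:75561019-75561388) was called in WT replicate 4 and in all 4 MUT libraries, and 2 others in WT replicates 5 and 6 and all MUT libraries. The call held in 5 of 17 alternatives and was lost in each one that left out a library (adjusted p 0.0691 to 0.123), and with the upper 50% of each list the difference was -0.36 (adjusted p = 0.834).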

How the data were processed

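The authors deposited 8 peak lists, 1 per library, in which each peak has its coordinates, a name and a positive score without a heading. This score is the authors' own value of unknown unit, and it was used only to rank peaks within a list. The submitters' processing notes name mm10 (GRCm38) as the build and list Bowtie2 2.3.4.1, DiffBind 3.0.12, DESeq2 and Trimmomatic, with no roles. Which peak caller was run, at what threshold and with what shift of reads, is not given in the sources used here. With no counts, read depth is unknown and no count model was run. The lists are per library, and per the labels' protocols each mouse was a biological replicate.

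Each peak was linked to the protein-coding gene (RefSeq, GRCm38.p6) whose nearer end was closest to its midpoint, within 50 kb. A peak with a base within 1 kb of an end of that gene was gene-end, any other was distal. The gene table holds gene ends only, so exons and introns were not used here. All 32 genes matched by symbol, and 27 matched the RefSeq start windows. Linked bp were summed per gene and library over genes with peaks in 2 or more libraries, scaled to the median library total, and tested as log2(bp + 200) with limma 3.58.1 (R 4.3.3, trend) over all such genes. Lengths printed in bp are unscaled, so a small difference may have the opposite sign on the log2 scale. Peaks sharing 1 bp or more were joined to regions, consensus regions being those called in at least 2 libraries. Widths of regions called in 8 of 8 libraries were tested in the same way after centring each library on its median, and presence was tested by Fisher's exact test, whose smallest p for 4 against 4 libraries is 0.0286 and cannot pass adjustment over all regions. Adjusted p-values are Benjamini-Hochberg values with a threshold of 0.05. The code was tested on simulated total lengths of 14255 genes with planted log2 differences. Of 100 planted differences of 0.3, 21% passed, and of 100 planted differences of 1, 79% passed, with 8 false calls. A gene that did not pass may thus still differ between the genotypes. Tables were made with Python 3.11.15, pandas 2.3.3 and scipy 1.17.1.

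The 32 genes, the wider pathway list, the marker lists and the motifs were chosen with earlier results of these data known. Every gene was named, and values in every library went to genes whose genotypes did not overlap, to those with a region called in 1 genotype only and to the gene with most and with least length in each role group. Other genes and regions given by library, with the Pfkfb3 start region and the Hk1 sequences, were picked after their values were seen. Alternatives were another pseudocount (50 or 1000 bp), no scaling or centring, genes with any peak, the upper 50% of each list, equal numbers of peaks (42695), a linking distance of 10 kb, every gene with an end within 1 kb, the gene of the merged region, autosomes only, an overlap of 100 bp, and leaving out each library. The class of the merged region and a difference of at least 3 libraries were added after seeing the data.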

Additional observations from a re-analysis of the deposited data

Results flagged for a closer look

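Of 78 groups of 4 libraries checked, 9 held a library far from the other 3 by Dixon's criterion, which chance alone flags in about 1 of 20 groups. The groups were the total lengths of the 32 genes, per genotype. Added to them were gene-end length at Rptor, Slc3a2, Pfkl and Pfkfb3 and distal length at Rptor, Rheb and Slc2a3. These are parts of totals also checked, so the groups are not independent and the chance rate is only a rough guide. At Rps6kb1 the values rest on how its start peak was linked. It had 891 bp in WT replicate 7 against 0 bp in the other WT libraries, and 0 bp in MUT replicate 29 against 876 to 963 bp in the other MUT libraries, while its start region was called in all 8. 

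The others were values of single libraries. Aldoa, with 1 peak in each library, had 810 bp in WT replicate 6 against 1033 to 1072 bp. Total length at Slc16a1 was 2699 bp in WT replicate 7 against 2876 to 2904 bp, and at Gapdh 892 bp in the same library against 1174 to 1217 bp. Pfkfb3 had 5713 bp in WT replicate 4 against 4760 to 4853 bp, and its gene-end length was 1266 bp in MUT replicate 27 against 1120 to 1143 bp. Myc had 3580 bp in MUT replicate 29 against 4188 to 4306 bp. The distal Rheb region had 0 bp in WT replicate 4 against 200 to 205 bp. WT replicate 7 and MUT replicate 29 have the shortest lists of their genotypes, with 42695 and 44333 peaks, and MUT replicate 27 has the longest. The part of list length in these values was not tested.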

How the results depend on the processing

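For total and distal length, 0 of the 32 genes passed in each of 17 and 16 alternatives. Gene-end length gave 1 gene with the upper 50% of each list (Pfkfb3), and 0 in the other 15. The width test gave 1 region with the upper 50% (the Pfkfb3 start, adjusted p = 0.000488) and 0 to 1 when each library was left out, the 1 being the Rptor start without MUT replicate 27. Regions called in 1 genotype only numbered 2 with equal numbers of peaks, the Rptor gene body region in MUT and a Slc2a3 region (chr6:122800672-122800906) in WT. They numbered 0 to 1 when each library was left out (1 without WT replicate 5, again at Rptor), and 1 when a difference of at least 3 libraries was asked for, an alternative chosen after seeing the data. From the wider pathway list, 0 genes passed with no scaling, with equal numbers of peaks, with a linking distance of 10 kb and without any 1 library (0 to 0), and Slc43a2 was the gene lost. Its adjusted p was 0.111, 0.354 and 0.895 in the former 3.

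Some differences changed sign. With the upper 50% of each list total length differed by -0.040 at Rheb, 0.048 at Myc and -0.36 at Slc43a2, and gene-end length by 0.015 at Slc3a2. With a linking distance of 10 kb, which drops most of its distal regions, Rptor differed by -0.066 in total length. When each library was left out, gene-end length at Slc3a2 differed by -0.046 to 0.0090 (above 0 without MUT replicate 27), and at Pfkfb3 by -0.0079 to 0.041 (below 0 without WT replicate 5 and, at -0.00085, without MUT replicate 29). The cause was not tested unless stated. Counts over all genes ran from 22 to 121 for total length (96 as reported), 12 to 51 for gene-end (29) and 44 to 183 for distal length (124). Over all regions they ran from 16 to 47 for width (27) and 282 to 675 for regions called in 1 genotype only (381). With so small a share of all genes passing, a count among 32 genes has little room to move. No paired analysis was possible because the WT numbers (4 to 7) and the MUT numbers (26 to 29) have none in common.

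The lists carry no counts, so a weak region called in some libraries only, such as those of Rheb and Rptor, cannot be set against the depth of its library. A link by distance is no evidence of a regulatory target.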
